A study of Mus musculus with 15 samples.

Results

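The genes described are 10 regulators of the G1 phase of the cell cycle, chosen by name from the 38315 genes of the table: the kinases Cdk4 and Cdk6, the D-type cyclins Ccnd1, Ccnd2 and Ccnd3, the E-type cyclin Ccne1, the inhibitors Cdkn1b (p27), Cdkn2c (p18) and Cdkn2d (p19), and the retinoblastoma gene Rb1. They were measured by sequencing of total RNA from mouse bone marrow in 15 libraries of 3 groups. The AML group held 7 marrows with acute myeloid leukaemia from NUP98-NSD1/FLT3-ITD mice, which carry a fusion of the nucleoporin NUP98 with the histone methyltransferase NSD1 together with an internal tandem duplication in the receptor kinase FLT3. Wild-type mice gave the other groups: 4 samples of whole marrow and 4 of lineage-negative marrow, from which cells bearing markers of mature lineages are removed. The submitters set the AML marrows against each of the wild-type groups, so the question for each gene is how its transcript level in leukaemic marrow stands to that of unfractionated and of progenitor-enriched normal marrow. Strain, age, sex, the constructs and promoters behind the leukaemia alleles and any pooling of animals are not given in the sources used here, and p-values measure only the spread between these samples.

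In the G1 phase, D cyclins bind CDK4 or CDK6, and the active kinases phosphorylate the retinoblastoma protein, which then releases E2F transcription factors to switch on genes of DNA replication. Cyclin E with CDK2 completes this phosphorylation. The INK4 proteins p18 and p19 bind CDK4 and CDK6 and keep them from cyclin D, whereas p27 binds assembled cyclin and CDK complexes and restrains cyclin E with CDK2 in particular. CDK6 is known for high levels in blood progenitors, and D cyclins are known to differ in use between blood lineages.

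The values are normalized counts, estimated reads per gene divided by a size factor for each library. Estimated depth was 20.3 to 35.1 M reads for AML, 11.4 to 17.2 M for whole marrow and 20.3 to 28.1 M for the lineage-negative libraries, and all 10 genes lay far above the floor of 3 reads in every library (normalized counts of 1.96 to 4.09; the floor covers counting error only). Whole marrow stood apart: 7.12% to 15.7% of genes were at 0 there against 23.6% to 41.4% for AML and 35.7% to 41% for the lineage-negative libraries, and 1726 olfactory and vomeronasal receptor genes, which marrow is not known to use, averaged 6.36 to 12 normalized counts there against 0.409 to 3.37 and 0.33 to 0.467. The median gene was higher by 0.67 (log2) in AML and by 0.59 in lineage-negative marrow than in whole marrow on the deposited scaling, but by 0.02 in AML than in lineage-negative marrow. For the 10 genes, each comparison with whole marrow is therefore given both as deposited and after rescaling the libraries by trimmed mean of M values (TMM), which brought these medians to −0.01 and −0.09. Whole marrow replicate 1 had the lowest total and a TMM factor of 0.468, and its deposited values were the lowest of the whole marrow group for all 10 genes.

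A gene was called higher or lower at a limma adjusted p under 0.05 (Benjamini-Hochberg, over 18941 genes tested) and a log2 difference of at least 1 in size. AML against lineage-negative marrow gave the same calls under both scalings: 3 of the 10 genes were called higher (Ccnd3, Cdkn2c and Cdkn2d) and 3 lower (Cdk4, Cdk6 and Ccne1). Over all genes tested, 17.7% were called higher and 12.5% lower as deposited, and 17.6% and 12.4% with TMM. Against whole marrow as deposited, AML had 2 of 10 called higher (Ccnd1 and Ccnd2) and 0 lower by limma (1 at an unadjusted p under 0.05, and 2 called lower by voom on estimated reads with TMM), where 27.3% of all genes were called higher and 11.3% lower. With TMM, 1 was called higher (Ccnd1) and 2 lower (Ccne1 and Rb1), where the shares of all genes were 4.73% and 16%. Lineage-negative against whole marrow had 4 called higher (Cdk4, Cdk6, Ccnd1 and Ccnd2) and 2 lower (Cdkn2d and Rb1) as deposited, beside 33.1% and 17.2% of all genes. With TMM, 3 were called higher (Cdk4, Cdk6 and Ccnd2) and 5 lower (Ccnd3, Cdkn1b, Cdkn2c, Cdkn2d and Rb1), beside 11% and 24.8%. At an adjusted p under 0.05 with no threshold on size, 5, 9 and 9 of the 10 genes passed in these comparisons as deposited (AML against whole, AML against lineage-negative, lineage-negative against whole) and 5, 9 and 8 with TMM. The share of all genes passing without the size threshold was not counted, so these counts are not read as particular to the members. The members' median log2 difference was 0.62 for AML against lineage-negative marrow under both scalings, and for AML against whole marrow 0.40 as deposited and −0.29 with TMM.

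**Figure D1:**
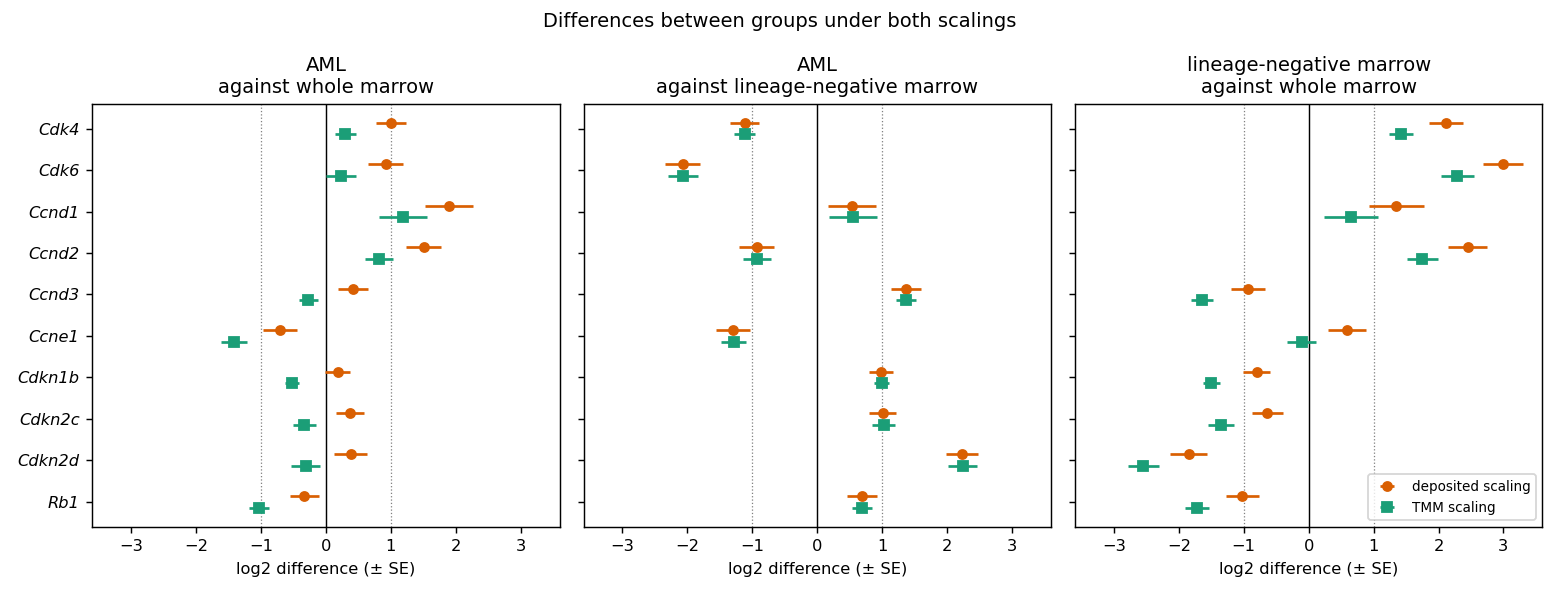
Log2 difference (horizontal axis, with its SE) of the 10 genes in the 3 comparisons, as deposited (circles) and with TMM scaling (squares); dotted lines mark a difference of 1. The 2 scalings coincide for AML against lineage-negative marrow, and both comparisons with whole marrow shift to lower values with TMM, by which Ccne1 and Rb1 pass −1 in AML.

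The kinase Cdk6 (ENSMUSG00000040274, chr5:3341485-3531008, plus strand, GRCm38) was among the genes that differed most between lineage-negative and whole marrow, with the largest fold of the 10 as deposited and the second to Cdkn2d (5.86-fold) with TMM. Its normalized counts were 22681, 17754, 22743 and 23557 in lineage-negative replicates 1 to 4 and 1604, 2925, 3066 and 3708 in whole marrow. In AML they ran from 3005 (replicate 3) over a median of 5262 to 9053 (replicate 5). Every AML library lay below every lineage-negative library, and 5 of the 7 lay above all whole marrow libraries. In bulk samples, fewer cells of a type and less RNA per cell cannot be told apart. Cdk6 was 4.2-fold lower in AML than in lineage-negative marrow (log2 difference −2.07, SE 0.27, adjusted p = 4.05e-06). Lineage-negative exceeded whole marrow 7.97-fold as deposited (2.99, SE 0.31, adjusted p = 2.59e-07) and 4.9-fold with TMM (2.29, SE 0.26, adjusted p = 1.28e-06). Against whole marrow the AML difference was 0.92 (SE 0.27, adjusted p = 0.00645), under the threshold on size, and 0.23 (SE 0.23, adjusted p = 0.457) with TMM.

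Cdk4 (ENSMUSG00000006728, chr10:127063534-127067920, plus strand), which shares its partners and substrate with Cdk6, had the same order of groups over a smaller range. Lineage-negative values were 6198, 9395, 6729 and 6552, whole marrow values 962, 1909, 2225 and 1760, and AML values ran from 2137 over a median of 3428 to 4367. No AML library reached the lineage-negative range, and only AML replicate 3 fell within that of whole marrow. AML was lower than lineage-negative marrow by log2 −1.12 (SE 0.23, adjusted p = 4.19e-04), a call that ended without lineage-negative replicate 2 (−0.99). The AML difference from whole marrow was 1.00 (SE 0.23, adjusted p = 8.99e-04), just short of the size threshold, and 0.30 with TMM (SE 0.16, adjusted p = 0.142). Lineage-negative exceeded whole marrow by 2.12 as deposited and by 1.42 with TMM (SE 0.18, adjusted p = 3.83e-06).

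**Figure D2:**
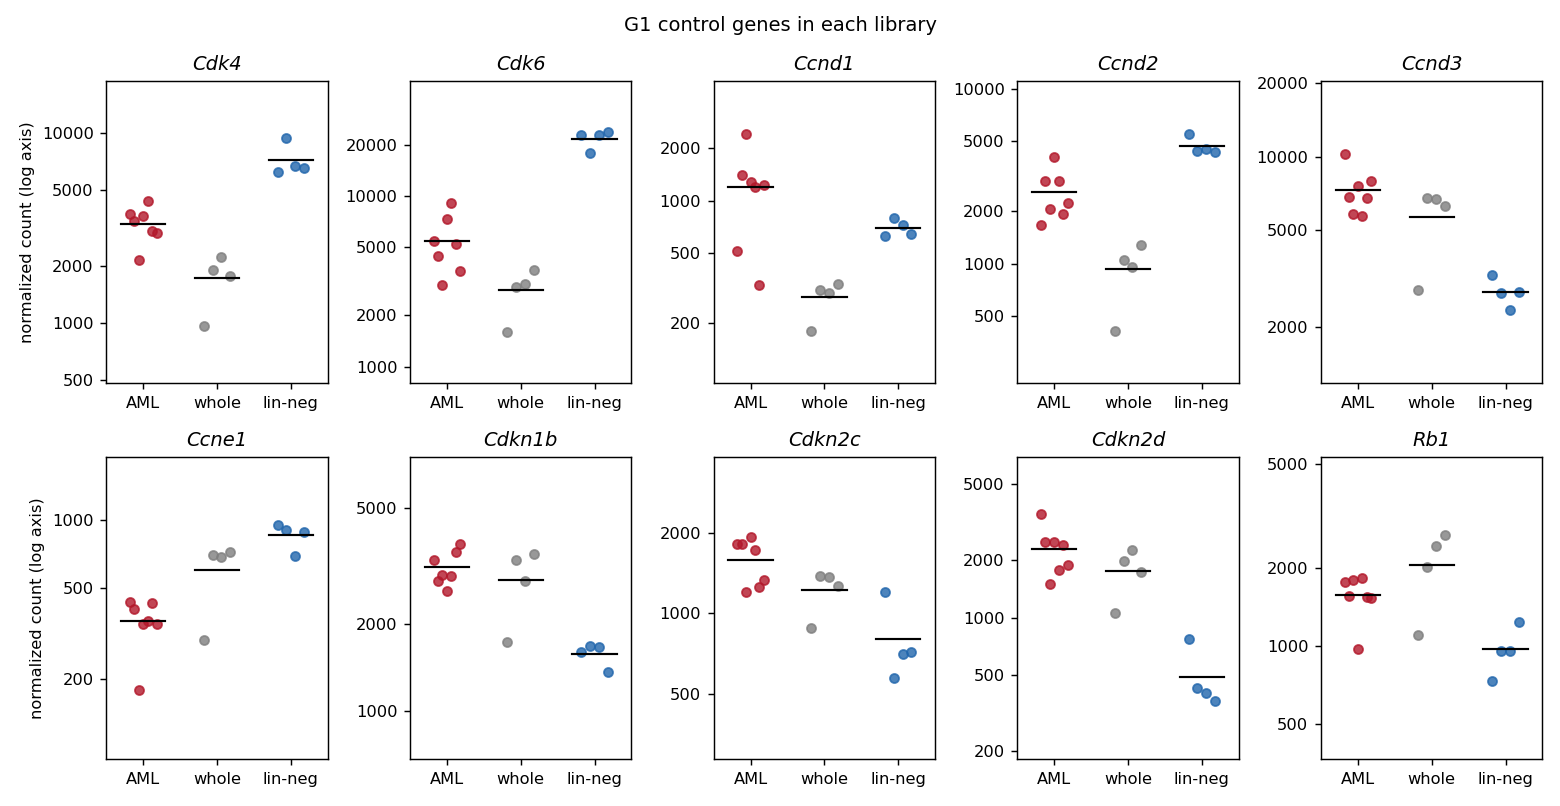
Normalized count (vertical log axis, as deposited) of each of the 10 genes in the 7 AML, 4 whole marrow and 4 lineage-negative (lin-neg) libraries; each point is a library and each bar the group mean. Cdk6 and Cdk4 are highest in lineage-negative marrow, Cdkn2d and Ccnd3 are lowest there apart from the Ccnd3 value of whole marrow replicate 1, and Ccnd1 spreads from 328 to 2426 in AML.

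The pair was also compared within libraries, where a ratio of 2 genes does not depend on the size factor. The log2 ratio of Cdk6 to Cdk4 was 0.65 ± 0.30 (SD, n = 7) in AML, 0.72 ± 0.26 (n = 4) in whole marrow and 1.60 ± 0.46 (n = 4) in lineage-negative marrow. AML and whole marrow overlapped along most of their ranges (0.29 to 1.05 and 0.46 to 1.08). In lineage-negative marrow 3 libraries lay between 1.76 and 1.87, above all others, and replicate 2 lay at 0.92, within the range of the other groups.

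Of the D cyclins, Ccnd1 (ENSMUSG00000070348, chr7:144929931-144939925, minus strand) was the most variable of the 10 genes in AML, with a coefficient of variation of 56.7% against 13.5% to 38.6% for the others. Its AML values were 520, 1407, 2426, 1277, 1206, 328 and 1238 in replicates 1 to 7, against 181, 308, 299 and 335 in whole marrow and 627.5, 793.7, 728.2 and 650.2 in lineage-negative marrow. AML replicates 1 and 6 lay below all lineage-negative libraries and the other 5 above all of them, and AML replicate 6 alone lay within the whole marrow range. Ccnd1 was higher in AML than in whole marrow by log2 1.89 (SE 0.37, adjusted p = 2.87e-04), and by 1.19 with TMM (SE 0.37, adjusted p = 0.0181), where AML replicate 6 fell below all whole marrow libraries. With TMM this call ended without AML replicate 3 (0.97), and also without whole marrow replicate 1, 2 or 3 (1.18, 1.16 and 1.16), where the adjusted p and not the size failed. The difference from lineage-negative marrow was 0.54 (SE 0.37, adjusted p = 0.256) and was not called. Lineage-negative exceeded whole marrow by 1.35 as deposited (SE 0.42, adjusted p = 0.00916) and by 0.65 with TMM (SE 0.42, adjusted p = 0.203).

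AML replicates 1 and 6, with the lowest Ccnd1, had the highest summed neutrophil markers of the AML group (1388621 and 988884 against 398909 to 731667). Their summed stem and progenitor markers, 4367 and 2507, were the lowest. AML replicate 3, with the highest Ccnd1, had the highest summed B cell markers (9205 against 739 to 5061) and red cell markers (24031 against 3123 to 15534), and the lowest summed mitosis genes (29435 against 48110 to 71970). The part of these cells in the spread of Ccnd1 was not tested.

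Ccnd2 (ENSMUSG00000000184, chr6:127125162-127152193, minus strand) separated all 3 groups as deposited. Whole marrow had 415, 1053, 956 and 1285, lineage-negative marrow 5522, 4420, 4505 and 4334, and AML ran from 1663 over a median of 2233 to 4070. All 7 AML libraries lay above whole marrow and below lineage-negative marrow. The AML difference was 1.51 from whole marrow (SE 0.27, adjusted p = 1.08e-04), and 0.82 with TMM (SE 0.21, adjusted p = 0.00607), which was under the size threshold and had 6 of 7 AML libraries above all whole marrow libraries. The difference from lineage-negative marrow was −0.93 (SE 0.27, adjusted p = 0.00775), also under that threshold, and reached −1.06 without AML replicate 4, the AML library with the most Ccnd2. Lineage-negative exceeded whole marrow 5.45-fold as deposited (2.45, SE 0.30, adjusted p = 1.80e-06) and 3.35-fold with TMM.

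Ccnd3 (ENSMUSG00000034165, chr17:47505051-47599691, plus strand) ran the other way between the groups. Lineage-negative marrow had 3274, 2757, 2349 and 2793, whole marrow 2825, 6743, 6721 and 6258, and AML ran from 5729 over a median of 6803 to 10208. All 7 AML libraries lay above lineage-negative marrow, and whole marrow replicate 1 was the only whole marrow library within the lineage-negative range. Ccnd3 was 2.57-fold higher in AML than in lineage-negative marrow (1.36, SE 0.23, adjusted p = 7.15e-05). AML and whole marrow were not called different (0.42, SE 0.23, adjusted p = 0.116, and −0.27, adjusted p = 0.175, with TMM). Lineage-negative marrow was lower than whole marrow by log2 −0.94 (SE 0.26, adjusted p = 0.00389), and by −1.64 with TMM (SE 0.17, adjusted p = 7.28e-07), where all 4 libraries lay below all of whole marrow. Without whole marrow replicate 1 the deposited difference was −1.24 and called.

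Per kilobase of exon, Ccnd2 held the largest share of the D cyclins in lineage-negative marrow and Ccnd3 in whole marrow. Exon length here is the union of all annotated exons of a gene, 4709 bases for Ccnd1, 9409 for Ccnd2 and 8775 for Ccnd3. Single transcripts can be shorter, so the order of shares between genes depends on these lengths. Ccnd3 made up 32.9% ± 2.24 (SD, n = 4) of the summed D cyclin level in lineage-negative marrow, 80.1% ± 2.11 (n = 4) in whole marrow and 61.4% ± 11.9 (n = 7) in AML. Ccnd2 made up 51.6% ± 2.14, 12.1% ± 1.86 and 20% ± 5.6 in the same order, and Ccnd1 15.5% ± 2.5, 7.74% ± 1.23 and 18.5% ± 10.1. In every AML library Ccnd3 held the largest share, from 47.5% (replicate 3) to 80.2% (replicate 1), and none reached down to the lineage-negative range of 29.7% to 34.7%. Only AML replicate 1 had a Ccnd3 share within the whole marrow range of 77.4% to 82.3%. The summed level per kilobase was 1354 ± 169 in AML, 801 ± 264 in whole marrow and 966 ± 87.5 in lineage-negative marrow as deposited, and 1192 ± 156, 1088 ± 150 and 848 ± 89 with TMM, so that AML and whole marrow overlapped after rescaling.

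**Figure D3:**
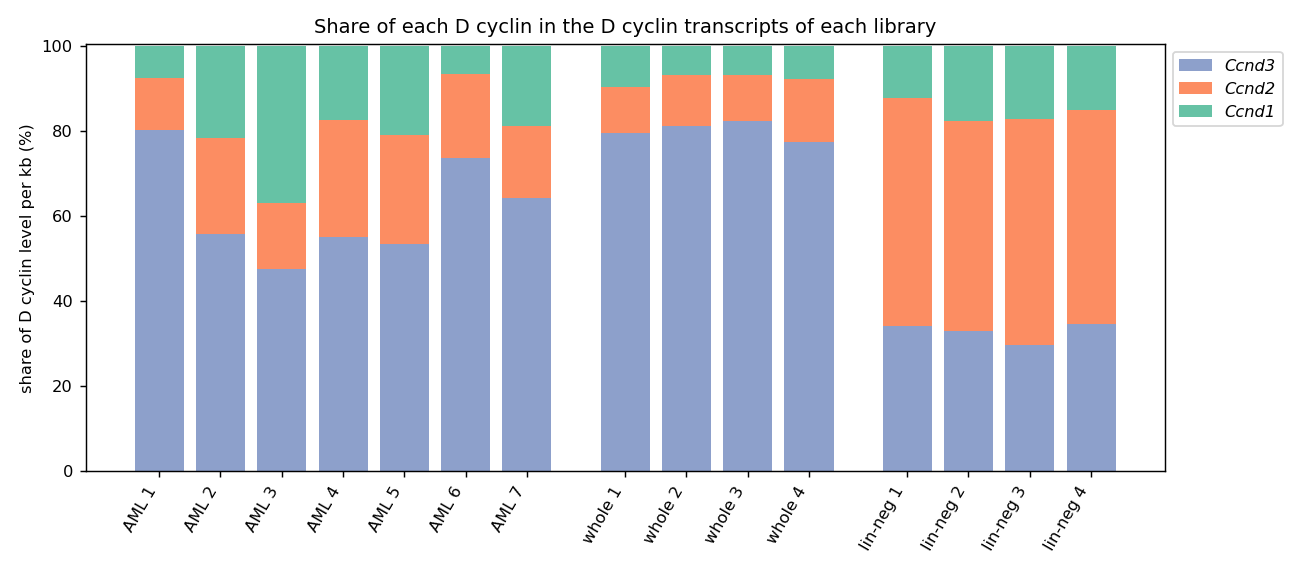
Share (%, vertical axis) of Ccnd1, Ccnd2 and Ccnd3 in the summed D cyclin level per kilobase of exon in each of the 15 libraries (AML, whole marrow, lin-neg for lineage-negative). Ccnd2 holds 49.3% to 53.7% in the lineage-negative libraries, Ccnd3 holds 77.4% to 82.3% in whole marrow, and AML shares vary from library to library.

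The log2 ratio of Ccnd2 to Ccnd3 was 0.75 ± 0.13 in lineage-negative marrow, −2.64 ± 0.24 in whole marrow and −1.54 ± 0.61 in AML. Lineage-negative marrow did not overlap with either of the other groups, and AML replicate 1 (−2.62) alone lay within the whole marrow range of −2.81 to −2.28. The ratio of Ccnd1 to Ccnd3 was −1.99 ± 0.31, −4.28 ± 0.24 and −2.81 ± 1.13 in the same order. AML replicates 1 and 6 (−4.30 and −4.37) lay within the whole marrow range of −4.49 to −3.97, and AML replicate 3 (−1.26) lay above all lineage-negative libraries.

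Ccne1 (ENSMUSG00000002068, chr7:38097984-38107534, minus strand), the cyclin of CDK2, was the only one of the 10 genes whose TMM mean in AML was below both normal groups. AML values ran from 178 (replicate 3) over a median of 360 to 434, lineage-negative values were 949, 908, 693 and 888, and whole marrow values 296, 702, 686 and 727. All 7 AML libraries lay below lineage-negative marrow, and whole marrow replicate 1 was the single normal library inside the AML range. Ccne1 was 2.46-fold lower in AML than in lineage-negative marrow (−1.30, SE 0.26, adjusted p = 3.86e-04). Against whole marrow the difference was −0.71 as deposited (SE 0.26, adjusted p = 0.0223) and −1.41 with TMM (SE 0.20, adjusted p = 2.90e-05), 7 of 7 AML libraries then being below all of whole marrow. Without whole marrow replicate 1 the deposited difference was −1.02 and called. The normal groups did not pass the test against each other (0.59, adjusted p = 0.0866, and −0.11 with TMM, adjusted p = 0.688).

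Its paralog Ccne2 differed from Ccne1 in lineage-negative marrow. Ccne2 averaged 679 ± 191 in AML, 1229 ± 448 in whole marrow and 860 ± 311 in lineage-negative marrow. AML against whole marrow was −0.83 (SE 0.31, adjusted p = 0.0235), and −1.53 with TMM (SE 0.26, adjusted p = 1.90e-04), whereas AML against lineage-negative marrow was −0.32 (SE 0.31, adjusted p = 0.416). The log2 ratio of Ccne1 to Ccne2 was −0.91 ± 0.24 in AML, −1.02 ± 0.18 in whole marrow and 0.08 ± 0.70 in lineage-negative marrow, and every lineage-negative library (−0.42 and above) exceeded every other one (−0.67 and below).

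The inhibitor Cdkn1b (ENSMUSG00000003031, chr6:134920401-134925513, plus strand) varied least among the AML libraries. AML values ran from 2596 over a median of 2950 to 3768, whole marrow values were 1734, 3326, 2814 and 3483, and lineage-negative values 1602, 1681, 1666 and 1372. The AML libraries lay above all lineage-negative libraries and overlapped with whole marrow. The difference from lineage-negative marrow was 0.98 (SE 0.19, adjusted p = 2.32e-04), just under the size threshold. AML against whole marrow was 0.18 as deposited (SE 0.19, adjusted p = 0.403) and −0.52 with TMM (SE 0.11, adjusted p = 0.00188), where 7 of 7 AML libraries fell below whole marrow. Lineage-negative against whole marrow was −0.80 (SE 0.21, adjusted p = 0.00259), and −1.50 with TMM (SE 0.13, adjusted p = 8.66e-08), which was called. The log2 ratio of Cdkn1b to Cdk6 was 0.02 ± 0.15 in whole marrow, −0.72 ± 0.65 in AML and −3.77 ± 0.29 in lineage-negative marrow. AML replicates 3 and 7 (−0.03 and 0.04) lay within the whole marrow range of −0.12 to 0.19, and the other 5 lay below it but above the highest lineage-negative value of −3.40.

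Of the INK4 inhibitors, Cdkn2d (ENSMUSG00000096472, chr9:21288410-21291407, minus strand) was lowest where Cdk6, which its product binds, was highest. Lineage-negative values were 770, 428, 403 and 365, whole marrow values 1062, 1971, 2266 and 1737, and AML values ran from 1499 over a median of 2415 to 3477. No library of AML or of whole marrow reached the lineage-negative range. Cdkn2d was 4.7-fold higher in AML than in lineage-negative marrow (2.23, SE 0.25, adjusted p = 5.22e-07). Lineage-negative was lower than whole marrow by log2 −1.85 (SE 0.28, adjusted p = 1.56e-05), and by −2.55 with TMM. AML and whole marrow were not called different (0.38, SE 0.25, adjusted p = 0.186, and −0.31 with TMM, adjusted p = 0.275).

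Cdkn2c (ENSMUSG00000028551, chr4:109660876-109667189, minus strand) had the same order with smaller steps. Lineage-negative values were 1202, 571, 705 and 717, whole marrow values 880, 1377, 1360 and 1259, and AML values ran from 1196 over a median of 1723 to 1921. AML replicate 3 (1196) lay just under lineage-negative replicate 1 (1202), and the other 6 AML libraries lay above the lineage-negative group. AML exceeded lineage-negative marrow by 1.01 (SE 0.21, adjusted p = 5.36e-04), a call at the edge of the size threshold that ended in turn without AML replicate 1, 2, 4 or 5 or lineage-negative replicate 2, 3 or 4 (0.87 to 0.99). AML against whole marrow was 0.37 (SE 0.21, adjusted p = 0.13), and −0.33 with TMM (adjusted p = 0.165). Lineage-negative against whole marrow was −0.64 (SE 0.24, adjusted p = 0.0228), and −1.35 with TMM (SE 0.20, adjusted p = 2.67e-05). The log2 ratio of Cdkn2c to Cdkn2d was −0.51 ± 0.33 in AML and −0.50 ± 0.19 in whole marrow, with overlapping ranges, and 0.71 ± 0.24 in lineage-negative marrow, where all 4 libraries were above 0 and all others below.

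Neutrophil markers were lowest in lineage-negative marrow, as were Ccnd3, Cdkn2c and Cdkn2d. That pattern was not particular to them: Cdkn1b and Rb1 were lowest there too. All 10 B cell markers and 9 of 10 T and NK cell markers were also called lower there than in whole marrow, under both scalings. The 10 neutrophil genes, led by S100a9, S100a8 and Ltf, were all called higher in AML than in lineage-negative marrow and all called lower in lineage-negative than in whole marrow, under both scalings. Their summed normalized counts as deposited were 398909 to 1388621 in AML, 430275 to 1149278 in whole marrow and 976 to 17112 in lineage-negative marrow. With TMM the sums were 362969 to 1166589 (median 538348) in AML and 863226 to 1408080 (median 1013562) in whole marrow. They were 837 to 15343 in lineage-negative marrow. Sums of single libraries that follow are as deposited. Lineage-negative replicate 1, which had the highest Cdkn2c, Cdkn2d and Ccnd3 of its group, also had the highest neutrophil sum of the group (17112). Lineage-negative replicate 2 had the lowest sum (976) and the lowest Cdkn2c (571), but more Cdkn2d (428) than replicates 3 and 4 (403 and 365). In AML, replicate 1 had the highest Ccnd3, Cdkn2d and neutrophil sum, whereas replicate 4 had the highest Cdkn2c (1921) and the lowest neutrophil sum (398909). The stem and progenitor markers moved with Cdk4, Cdk6 and Ccnd2: 8 of 10 were lower in AML than in lineage-negative marrow, and their sum was 17419 to 22507 in lineage-negative marrow against 2507 to 8612 in AML and 1500 to 2712 in whole marrow. The part of these cell types in the differences was not tested.

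To show gene starts of Cdk6 and of the INK4 inhibitors, the promoter windows (250 bases before to 50 after a start, RefSeq, GRCm38.p6, 5′ to 3′ on the gene's strand) of Cdk6 (chr5:3343643-3343942, plus strand), Cdkn2c (chr4:109666707-109667006, minus strand) and Cdkn2d (chr9:21291160-21291459, minus strand) are printed, with capitals marking a match to an E2F motif.
Cdk6: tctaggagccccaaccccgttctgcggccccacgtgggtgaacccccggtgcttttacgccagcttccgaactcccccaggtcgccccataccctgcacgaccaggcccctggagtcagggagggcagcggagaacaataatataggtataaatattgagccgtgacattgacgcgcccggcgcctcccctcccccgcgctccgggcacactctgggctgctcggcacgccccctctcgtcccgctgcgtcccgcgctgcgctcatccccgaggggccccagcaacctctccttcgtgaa
Cdkn2c: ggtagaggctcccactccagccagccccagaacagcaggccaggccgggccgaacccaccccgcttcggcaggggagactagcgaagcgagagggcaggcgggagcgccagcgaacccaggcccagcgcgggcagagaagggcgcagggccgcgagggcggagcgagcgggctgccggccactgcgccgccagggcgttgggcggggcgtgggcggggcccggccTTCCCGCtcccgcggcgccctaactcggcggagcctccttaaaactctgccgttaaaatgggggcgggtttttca
Cdkn2d: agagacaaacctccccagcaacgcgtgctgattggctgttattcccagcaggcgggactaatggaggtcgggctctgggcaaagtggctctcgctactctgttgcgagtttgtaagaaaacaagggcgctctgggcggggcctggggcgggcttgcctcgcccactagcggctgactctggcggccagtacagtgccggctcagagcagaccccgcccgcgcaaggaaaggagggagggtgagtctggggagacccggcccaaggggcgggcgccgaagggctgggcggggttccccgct
The motifs searched on both strands were TTCCCGC (found in 4.6% of all windows in the table), TTGGCGC (2.45%), TTCGCGC (1.59%) and TTGCCGC (1.81%). Of the 10 genes, 7 had an entry, with 9 windows, and 1 of the 9 held such a motif, the Cdkn2c window above with TTCCCGC, which does not overlap a GC box. Among all 32851 windows of that length, 9.57% held at least 1 of the motifs. The GC box GGGCGG, searched likewise, was found in 7 of the 9 windows and in 35.7% of all windows. The Cdkn2d window held 5, the printed Cdkn2c window 4 and the Cdk6 window 0. The other Cdkn2c window (chr4:109665323-109665622) also held 0, and the window of Cdk4, which had the group order of Cdk6, held 3. A link of these counts to the transcript levels was not tested. A match is a run of letters and not a shown binding site.

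Rb1 (ENSMUSG00000022105, chr14:73183673-73325822, minus strand), which encodes the substrate of these kinases, was lowest in lineage-negative marrow. Its values were 735, 959, 957 and 1230 there, 1097, 2001, 2416 and 2667 in whole marrow, and ran from 969 (replicate 4) over a median of 1554 to 1821 in AML. AML replicate 4 lay within the lineage-negative range and the other 6 AML libraries above it. Rb1 in AML was 0.69 above lineage-negative marrow (SE 0.23, adjusted p = 0.019), under the size threshold. Against whole marrow it was −0.33 as deposited (SE 0.23, adjusted p = 0.212) and −1.03 with TMM (SE 0.16, adjusted p = 1.06e-04), and all 7 AML libraries were below whole marrow after rescaling. That call sat at the threshold and ended without AML replicate 4, whole marrow replicate 3 or whole marrow replicate 4 (−0.93 and −0.95 for the replicates numbered 4). Lineage-negative was lower than whole marrow by log2 −1.02 (SE 0.26, adjusted p = 0.00197), which ended without whole marrow replicate 3 or 4 or lineage-negative replicate 1 (−0.92, −0.87 and −0.90), and by −1.72 with TMM (SE 0.19, adjusted p = 9.02e-07).

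All 10 red cell markers, led by Hbb-bs, Hba-a1 and Slc4a1, were lower in AML than in whole marrow, as were Rb1 and Ccne1 with TMM. The sum of the markers ranged from 3123 to 24031 for AML, from 25801 to 45597 for the lineage-negative group and from 580952 to 1418288 for whole marrow. With TMM, 6 of the 10 markers and Rb1 (−1.72) were also called lower in lineage-negative than in whole marrow. Ccne1 was not called there (−0.11, limma adjusted p = 0.688). The part of red cell precursors in these differences was not tested.

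**Figure D4:**
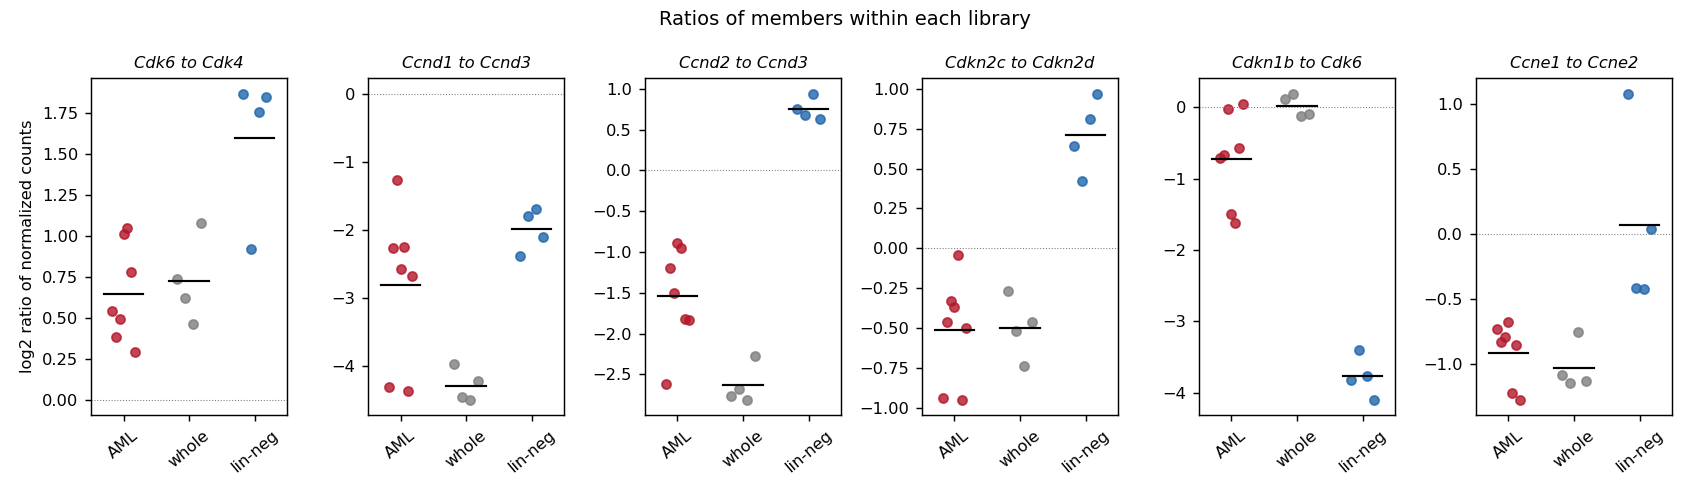
Log2 ratio of 2 genes within each library (vertical axis), for Cdk6 to Cdk4, Ccnd1 to Ccnd3, Ccnd2 to Ccnd3, Cdkn2c to Cdkn2d, Cdkn1b to Cdk6 and Ccne1 to Ccne2; points are libraries and bars group means. AML overlaps with whole marrow in every panel, and lineage-negative marrow stands clear of both in the ratios Ccnd2 to Ccnd3, Cdkn2c to Cdkn2d, Cdkn1b to Cdk6 and Ccne1 to Ccne2.

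Levels were compared between genes per kilobase of exon, with the same union lengths, on which the order of genes depends. In lineage-negative marrow Cdk4 was highest (2222 ± 452 per kilobase), then Cdk6 (1550 ± 189) and Ccnd2 (499 ± 59.1), and the libraries of these neighbours did not overlap. Cdkn1b (347), Ccne1 (323), Ccnd3 (318), Cdkn2d (312) and Cdkn2c (297) followed and overlapped from each to the next, with no overlap between Ccnd2 and Cdkn1b. Rb1 (161) and Ccnd1 (149) came last, and Rb1 did not overlap with Cdkn2c. In whole marrow the order began with Cdkn2d (1117 ± 326), Ccnd3 (642 ± 215) and Cdkn1b (624 ± 174) and ended with Cdk6 (202), Ccnd2 (98.6) and Ccnd1 (59.6). In AML it was Cdkn2d (1454 ± 415), Cdk4 (1027 ± 217), Ccnd3 (827 ± 175), Cdkn1b (688), Cdkn2c (587), Cdk6 (390), Ccnd2 (271), Rb1 (261), Ccnd1 (255) and Ccne1 (135). Every pair of neighbours overlapped in whole marrow and in AML. On the TMM log2 means, 8 of the 10 genes in AML lay between the normal groups, Ccnd1 above both and Ccne1 below both. These are positions of means alone, and the share of all genes lying between was not counted. With TMM, AML did not pass the limma test against whole marrow for Cdk4, Cdk6, Ccnd3, Cdkn2c and Cdkn2d (adjusted p = 0.142 to 0.457). Nor did Ccnd1 against lineage-negative marrow (0.55, adjusted p = 0.237).

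Of 26 other G1 regulators, 24 were tested. In AML against lineage-negative marrow 2 were called higher (E2f2 and Cdkn1c) and 4 lower (E2f3, E2f4, E2f6 and Tfdp2), with a median log2 difference of −0.52. Against whole marrow 3 were called higher (Cdkn1a, Rbl2 and Ambra1) and 1 lower (Tfdp2) as deposited, and 1 higher (Cdkn1a) and 3 lower (Tfdp2, E2f2 and Ccne2) with TMM. In lineage-negative against whole marrow 12 were called higher (Cdkn1a, E2f1, E2f3, E2f5, E2f6, Cdc25a, Cdk7, Ccnh, Mnat1, Skp2, Cks1b and Ambra1) and 2 lower (E2f2 and Tfdp2) as deposited. With TMM 0 were called higher by limma or by voom (9 at an unadjusted p under 0.05), while the 3 lower were E2f2, Tfdp2 and Ccne2, and some of the 12 stayed past the p threshold, such as E2f6 (1.00, just short in size, adjusted p = 9.05e-04) and Ccnh (0.83, adjusted p = 1.00e-04).

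Tfdp2, a dimerization partner of E2F factors, differed between all groups under both scalings. It averaged 721 ± 182 in AML, 4679 ± 1426 in whole marrow and 1777 ± 88.5 in lineage-negative marrow, and all 7 AML libraries lay below both normal groups. The AML difference was −2.67 from whole marrow (SE 0.21, adjusted p = 2.44e-08), −3.37 with TMM (SE 0.16, adjusted p = 1.08e-10), and −1.34 from lineage-negative marrow (SE 0.21, adjusted p = 3.77e-05). E2f2, an activating E2F factor, was lowest in lineage-negative marrow, with means of 997 ± 404 there, 6549 ± 1897 in whole marrow and 4174 ± 950 in AML. It was 4.31-fold higher in AML than in lineage-negative marrow (2.11, SE 0.25, adjusted p = 8.53e-07), and its difference from whole marrow was −0.62 as deposited (adjusted p = 0.033) and −1.32 with TMM (adjusted p = 6.85e-05). E2f3 (−1.01), E2f4 (−1.02) and E2f6 (−1.14) were lower in AML than in lineage-negative marrow, with 7 of 7 AML libraries below.

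Cdkn1a (p21), a relative of Cdkn1b, averaged 248 ± 63.6 in AML, 76.8 ± 23.3 in whole marrow and 209 ± 76.4 in lineage-negative marrow. It was higher in AML than in whole marrow by 1.70 (SE 0.28, adjusted p = 5.15e-05) and by 1.01 with TMM (SE 0.24, adjusted p = 0.00331), 7 of 7 AML libraries exceeding whole marrow, and differed by 0.28 from lineage-negative marrow (adjusted p = 0.435). Cdkn1c (p57) was scarce at 23.2 ± 8.79, 14.2 ± 6.87 and 10.3 ± 4.37, and its call against lineage-negative marrow (1.09, SE 0.41, adjusted p = 0.0356) ended with TMM on the p alone (1.09, SE 0.45, adjusted p = 0.0523), and 6 of 7 AML libraries exceeded lineage-negative marrow under both scalings. Between AML and whole marrow Cdkn1c differed by 0.70 as deposited and by 0.05 with TMM, neither called. Cdk2, the partner of cyclin E, was not called in any comparison (0.47, −0.02 and 0.49 for AML against whole, AML against lineage-negative and lineage-negative against whole marrow), and with TMM both differences from whole marrow had the opposite sign (−0.23 and −0.21, not called). Of the relatives of Rb1, Rbl1 (p107) was not called in any comparison, and Rbl2 (p130) was higher in AML than in whole marrow by 1.06 (SE 0.15, adjusted p = 1.56e-05) but by 0.36 with TMM (adjusted p = 0.00752), in each case with 7 of 7 AML libraries above.

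The other INK4 genes, Cdkn2a and Cdkn2b, were too low to be tested. Cdkn2a was above the floor of 3 reads in 2 of 7 AML libraries, replicate 3 (14.7 normalized counts) and replicate 6 (19.7), and in none of the 8 normal libraries. Cdkn2b was above the floor in AML replicates 3, 6 and 7 (14.7, 11.1 and 5.39) and in whole marrow replicate 2 (5.36). The olfactory and vomeronasal receptor genes averaged 0.492 in AML replicate 3 and 3.37 in AML replicate 6.

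**Figure D5:**
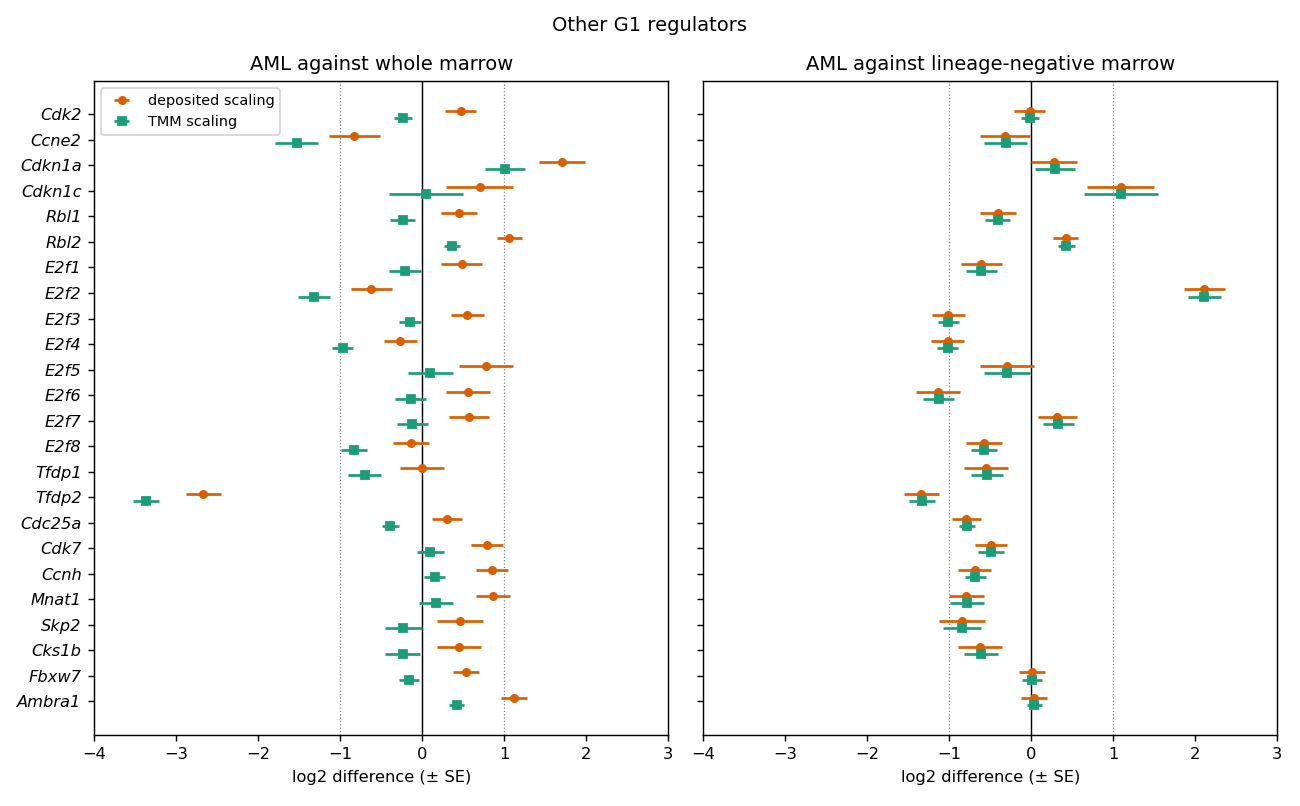
Log2 difference (horizontal axis, with its SE) of the 24 tested other G1 regulators in AML against whole marrow and against lineage-negative marrow, as deposited (circles) and with TMM scaling (squares); dotted lines mark a difference of 1. Tfdp2 lies below −1 in both comparisons, and E2f2 at 2.11 against lineage-negative marrow.

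Genes that E2F factors are known to switch on were lower in AML than in lineage-negative marrow. Of 18 E2F target and S phase genes, 12 were called lower in AML and 0 higher by limma (0 also at an unadjusted p under 0.05 and 0 by voom), under both scalings, with a median log2 difference of −1.13 against 0.02 for all genes tested. Mcm6, a subunit of the replicative helicase, averaged 4730 ± 1198 in AML, 3785 ± 1026 in whole marrow and 12042 ± 976 in lineage-negative marrow (AML against lineage-negative −1.39, SE 0.23, adjusted p = 5.02e-05). These Mcm6 means are as deposited. Its difference between AML and whole marrow was 0.33 as deposited and −0.37 with TMM, neither called. For its partners Mcm5 and Mcm7 the log2 differences of AML from lineage-negative marrow were −1.03 and −1.26. Against whole marrow 1 of the 18 was called lower (Orc1, −1.10) and 0 higher as deposited (1 at an unadjusted p under 0.05, and 0 by voom), and 5 lower (Cdc6, Rrm2, Ccna2, Orc1 and Mybl2) with TMM, with medians of 0.02 and −0.68. Lineage-negative against whole marrow had 9 called higher as deposited and 1 higher and 1 lower with TMM.

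Of the 12 mitosis genes, by limma 0 were called in any comparison as deposited, with medians of −0.01, −0.29 and 0.25 for AML against whole, AML against lineage-negative and lineage-negative against whole marrow. At an unadjusted p under 0.05 these comparisons had 2 higher and 0 lower, 0 higher and 1 lower, and 4 higher and 0 lower. With TMM the medians were −0.71, −0.28 and −0.45, and at an unadjusted p under 0.05 there were 9, 2 and 5 lower and 0 higher. Among genes at that p, the direction against whole marrow thus turned with the scaling. The list's median for AML against whole marrow was below 0 under both scalings. All genes tested had medians of 0.67 as deposited and −0.01 with TMM in that comparison. Mki67 alone was called with TMM, lower in AML than in whole marrow (−1.08, SE 0.23, adjusted p = 0.00126), and voom also called 1 gene lower there and 0 in the other comparisons. The difference between this list and the E2F targets was not tested. As deposited, Mki67 averaged 24580 ± 6400 in AML, 32218 ± 10315 in whole marrow and 30047 ± 8380 in lineage-negative marrow, and Top2a 13666 ± 3785, 12265 ± 3769 and 18285 ± 1563. The Top2a difference between AML and whole marrow was 0.16 as deposited and −0.54 with TMM, neither called. AML replicate 3, which had the lowest Cdk4, Cdk6 and Ccne1 of the AML group, also had the lowest sums of the E2F target genes (21481 against 34966 to 49744) and of the mitosis genes. The same library had the lowest Cdkn2c (1196) and Cdkn2d (1499), the highest Ccnd1 (2426) and the lowest sum of monocyte markers (109743) of the AML group. A link between these was not tested.

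The genes closest in pattern to each of the 10 were sought among 10049 protein-coding genes, by the root mean square difference of centred log2 TMM profiles over the 15 libraries. Cdk4 (own spread 0.60) was closest to Trim28 (0.12), Pold2 (0.13) and Ipo5 (0.15). Cdk6 (spread 1.02) was closest to Cad (0.25), Polr1b (0.26) and Tmem201 (0.28). Ccnd1 (0.79) had the most distant neighbours, Grk3 (0.26), Dpp4 (0.32) and Bin1 (0.40). Ccnd2 (0.72) was closest to Zfp593 (0.24), Zfp629 (0.24) and Prr3 (0.25), and Ccnd3 (0.70) to Cds2 (0.15), R3hdm4 (0.18) and Hbp1 (0.19). Ccne1 (0.74) was closest to Cdc6 (0.20), an E2F target that loads the replicative helicase, Polq (0.24) and Slc43a3 (0.24). Cdkn1b (0.58) was closest to Map1lc3b (0.16), Inpp5a (0.17) and Mtmr3 (0.17), and Cdkn2c (0.59) to Atp2a3 (0.21), Ehbp1l1 (0.24) and Vcl (0.25). Cdkn2d (1.10) had Tmem71 and Ncf1 (0.26 each) among its closest, Ncf1 being a subunit of the phagocyte oxidase, and Rb1 (0.68) to Mpp1 (0.22), Riok3 (0.22) and Mindy2 (0.23). The libraries share their cell makeup and scaling, so these distances are descriptions.

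Markers of further cell types also differed between the groups. All 10 monocyte markers, led by Fn1, F13a1 and Ly6c2, were higher in AML than in either normal group as deposited (7 of 10 against whole marrow with TMM), and summed to 109743 to 234601 in AML against 25346 to 50537 in whole marrow and 26292 to 45625 in lineage-negative marrow. Of 10 B cell markers, 9 were lower in AML than in whole marrow and 8 higher than in lineage-negative marrow, under both scalings. Of 10 T and NK cell markers, 6 were higher in AML than in lineage-negative marrow, and against whole marrow 5 were higher and 0 lower as deposited but 0 higher and 3 lower with TMM by limma (by unadjusted p under 0.05, 0 lower and 0 higher in turn; by voom 4 lower and 0 higher). Of 8 megakaryocyte markers, 7 were lower in AML than in whole marrow under both scalings, and 1 was higher and 4 lower than in lineage-negative marrow. Of 9 stroma and endothelium markers tested, 2 were lower in AML than in whole marrow as deposited and 3 with TMM, and 4 were higher and 3 lower than in lineage-negative marrow. The part of these cells in the levels of the G1 genes was not tested.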

How the data were processed

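Total RNA of 15 mouse bone marrow samples was isolated with TRIzol and made into TruSeq Stranded Total RNA libraries, per the labels' protocols. The table deposited by the authors holds a signal that is never negative, gene counts scaled by 1 size factor for each library (poscounts type, per the file's name). Partek, STAR, DESeq2 and mm10 are named in the submitters' processing notes. The quantifier, its annotation and the strand used for counting are not given in the sources used here, so overlapping and antisense genes are not separated and reads of paralogs may be split. Of the gene identifiers, 38066 occur in GENCODE M21 (GRCm38). There 37623 have the table's length within 1 base but 861 its start, so positions and exon lengths were taken from GENCODE and not from the table. The exon length of a gene is the union of all its annotated exons.

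Groups and replicate numbers came from the sample titles. Depth was estimated from the value of 1 read, the step of which 82.1% to 87% of the low values in each library were whole multiples within a tolerance of 0.02. Whole reads were not recovered, so no count test was run. Genes with a value of at least 10 in at least 4 samples (18941) entered 1 limma fit of 3 group means on log2(value + 1) (limma 3.58.1, R 4.3.3, mean-variance trend, two-sided, Benjamini-Hochberg adjustment over all genes tested). Fold changes on this scale understate those of low genes. On simulated data for AML against whole marrow, 199 of 200 genes with a log2 change of 2 and 9 unchanged genes were called, among 18299 tested. Unchanged genes there had the same mean in every group, with no shift in scaling. These counts therefore do not cover the median shift of 0.67 in the deposited values. TMM factors were computed in R on the deposited values of the genes kept. Ratios and shares are descriptive.

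All 10 members are named. Other G1 regulators are named when called or when partners of the members, and of the further lists the 3 genes with the highest mean and any with values beside a result. For likeness the 3 closest genes are named for each member, except 1 gene that is not reported here. The members, the gene lists and the tests were chosen with earlier results of these data known. The motif letters and the leave-one-out fits with TMM were chosen after seeing the data. Alternatives tried were other scalings, filters, pseudocounts, background subtraction, voom, fits of 2 groups, a replicate block, a rule without the size threshold, and leaving out each library. Promoter sequences come from RefSeq (GRCm38.p6).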

Additional observations from a re-analysis of the deposited data

Results flagged for a closer look

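Over the 10 genes and 6 within-library ratios, 48 groups of libraries were checked for a sample far from the others of its group, and 8 were found; chance flags about 1 in 20 groups. Among normalized counts these were Cdk6 in lineage-negative replicate 2 (17754, below the rest), Ccnd2 in lineage-negative replicate 1 (5522, above the rest), Ccnd3 and Ccne1 in whole marrow replicate 1 (2825 and 296, below the rest), Ccne1 in AML replicate 3 (178, below the rest) and Rb1 in AML replicate 4 (969, below the rest). Among log2 ratios they were Cdk6 to Cdk4 in lineage-negative replicate 2 (0.92, below the rest) and Ccne1 to Ccne2 in whole marrow replicate 3 (−0.75, above the rest). With TMM scaling, Ccnd3 and Ccne1 in whole marrow replicate 1 were 6032 and 632, against 7841 to 8484 and 860 to 911 in the other whole marrow libraries.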

How the results depend on the processing

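AML against lineage-negative marrow gave 3 genes called higher and 3 lower as deposited, with TMM and with voom, 2 higher and 4 lower with quantile scaling (Cdkn2c at 0.97 lost, Ccnd2 at −1.11 gained), and 5 higher by adjusted p alone. The comparisons with whole marrow depended on the scaling. Genes called higher in AML than in whole marrow numbered 2 as deposited, 1 with TMM, quantile scaling or voom, 4 by adjusted p alone and 2 to 4 with a library left out; genes called lower numbered 0, 2 with each of these scalings, 1 by adjusted p alone and 0 to 1 with a library left out. With TMM and a library left out (chosen after seeing the data), 0 to 1 were higher and 1 to 2 lower. Genes called lower in lineage-negative than in whole marrow numbered 2 as deposited, 5 with TMM, quantile scaling or voom, 5 by adjusted p alone and 1 to 4 with a library left out. The share of all genes passing by adjusted p alone was not counted. Over all genes, calls higher fell from 5167 to 896 in AML and from 6266 to 2075 in lineage-negative marrow against whole marrow with TMM. Under TMM the uncalled differences of Ccnd3 (−0.27), Cdkn1b (−0.52), Cdkn2c (−0.33) and Cdkn2d (−0.31) in AML against whole marrow and of Ccne1 (−0.11) between the normal groups had the opposite sign to the deposited ones, and no called difference changed sign. The pseudocounts of 0.1 and 5, both other filters and fits of the 2 groups alone changed no member's call; background subtraction brought Cdk4 (1.00) past the size threshold in AML against whole marrow. Every within-library ratio stayed within 1 SD of its value. The replicate block changed no member's call (for example Cdk6 −2.16 and Cdkn2d 2.34 in AML against lineage-negative marrow, and Ccnd1 2.16 against whole marrow, with 2 genes higher and 0 lower there); deviations of same-numbered samples had correlations of −0.288 to 0.171 over 12 pairs, 2 of them over 0.1, so the numbers are not taken as pairs. All 10 genes were far above 3 reads in every library.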
